A study of Homo sapiens with 8 samples.

Results

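The RNA of ribosome biogenesis factors, the proteins that build ribosomes without being part of them, was examined in A375 cells, a human melanoma line that carries an activating BRAF mutation. The members were a list of 34 named genes, and 30 of them had a probe set paired with exactly 1 gene symbol on the array, of 19775 genes so measured in all. NOP56, DKC1, BOP1 and GNL3 had no such probe set and were not analysed here. Where a gene had several such probe sets, the one with the highest mean log2 value over the 8 arrays was used. The siRNA and the medium or drug defined 8 conditions, with 1 array each. In the first set of 5 arrays, cells carried an siRNA against BRAF (siBRAF) in glutamine-free or in normal medium, an siRNA against ATF4 (siATF4) in normal medium, or a nontargeting siRNA (siCont) in glutamine-free or in normal medium, each for 18 h. In the second set of 3 arrays, cells carried siATF4 or siCont with 10 uM vemurafenib, an inhibitor of mutant BRAF, or siCont with the solvent DMSO, each for 4 h. All cells thus went through transfection, the time between transfection and the change of medium or drug is not given in the sources used here, and each siRNA is represented by 1 label with no sequence.

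Ribosome assembly starts in the nucleolus, where RNA polymerase I copies the ribosomal DNA into a long precursor. Small nucleolar ribonucleoproteins then modify this RNA, and ordered sets of assembly factors fold, cut and export the small and the large subunit. Many of these genes are known targets of the transcription factor MYC, and their output is tied to growth signalling, of which the RAF, MEK and ERK kinase cascade is one arm in melanoma.

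With 1 array per condition no difference below has a replicate check, and no p-value is given. A level is a linear intensity of 1 probe set, which cannot be compared between genes. A difference is on the log2(intensity + 1) scale, so that -1 is 2-fold lower. The 2 array sets had different scales, with median intensities of 14.8 to 15.5 on the 5 medium arrays and 36.4 to 36.9 on the 3 drug arrays, and differences were taken only within a set. All 30 members lay above the median of all probe sets on every array. The lowest member was at percentile 70.5 of an array. In bulk RNA a lower amount per cell and fewer cells that hold the RNA cannot be told apart. ATF4 read 534 with siATF4 and 1814 with siCont in normal medium, and 757 with siATF4 and 4548 with siCont in vemurafenib, so it was lower on both arrays labelled siATF4. No probe set used here pairs with BRAF alone, so the effect of siBRAF on its target was not checked, and siBRAF below names the labelled siRNA. Of 8 melanocyte lineage markers 7 were measured. MITF, SOX10, TYR and S100B lay above the array median on all 8 arrays and PMEL on 3, while MLANA (at most 24.1) and TYRP1 (at most 14.8) lay below it on every one.

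The promoters of members that were lower with siBRAF are shown first, since all measured members were lower together there. Each window holds 250 bases before and 50 bases after an annotated transcript start in RefSeq (GRCh38.p14), read 5′ to 3′ on the gene's strand. Capitals mark CACGTG, the palindromic E-box to which MYC and MAX are known to bind, and CCGGAAG on either strand, a core recognised by ETS factors. Of the 10 members that were at least 2-fold lower with siBRAF in both media, the 5 that hold an E-box come first. TSR1, which holds the ETS core without an E-box, and WDR12, which holds neither, are shown as examples of the others. POLR1B, which also holds only the ETS core, and WDR75, which also holds neither, are not printed. NOP58 had no window.
LYAR, chr4:4289972-4290271, minus strand: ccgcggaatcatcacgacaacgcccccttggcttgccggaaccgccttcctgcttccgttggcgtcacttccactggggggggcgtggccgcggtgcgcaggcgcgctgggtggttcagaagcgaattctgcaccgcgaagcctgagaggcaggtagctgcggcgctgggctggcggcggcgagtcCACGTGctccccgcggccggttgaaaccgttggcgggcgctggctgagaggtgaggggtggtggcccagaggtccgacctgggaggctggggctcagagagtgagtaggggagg
MRTO4, chr1:19251555-19251854, plus strand: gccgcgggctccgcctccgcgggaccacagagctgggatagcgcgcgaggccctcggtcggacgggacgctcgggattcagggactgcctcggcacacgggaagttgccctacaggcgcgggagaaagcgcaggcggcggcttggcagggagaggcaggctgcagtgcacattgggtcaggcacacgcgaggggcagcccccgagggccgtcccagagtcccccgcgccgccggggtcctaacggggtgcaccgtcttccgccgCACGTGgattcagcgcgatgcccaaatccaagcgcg
BYSL, chr6:41921249-41921548, plus strand: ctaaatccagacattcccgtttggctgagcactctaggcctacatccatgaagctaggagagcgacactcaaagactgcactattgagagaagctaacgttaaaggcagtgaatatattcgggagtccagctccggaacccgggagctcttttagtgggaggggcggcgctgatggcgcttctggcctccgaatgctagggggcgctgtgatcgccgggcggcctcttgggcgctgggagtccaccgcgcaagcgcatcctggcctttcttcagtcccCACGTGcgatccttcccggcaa
IMP4, chr2:130342647-130342946, plus strand: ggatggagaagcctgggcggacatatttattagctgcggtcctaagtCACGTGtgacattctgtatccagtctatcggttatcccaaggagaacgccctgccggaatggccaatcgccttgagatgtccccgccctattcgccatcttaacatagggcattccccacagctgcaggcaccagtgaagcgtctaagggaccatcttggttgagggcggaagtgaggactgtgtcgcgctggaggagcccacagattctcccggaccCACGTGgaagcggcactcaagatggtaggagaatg
RRP9, chr3:51941855-51942154, minus strand: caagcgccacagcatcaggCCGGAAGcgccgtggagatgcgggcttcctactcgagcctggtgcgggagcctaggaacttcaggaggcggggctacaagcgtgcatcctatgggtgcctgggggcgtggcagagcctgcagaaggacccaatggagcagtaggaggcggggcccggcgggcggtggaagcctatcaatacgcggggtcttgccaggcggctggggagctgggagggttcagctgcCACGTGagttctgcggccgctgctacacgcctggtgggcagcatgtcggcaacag
TSR1, chr17:2336408-2336707, minus strand: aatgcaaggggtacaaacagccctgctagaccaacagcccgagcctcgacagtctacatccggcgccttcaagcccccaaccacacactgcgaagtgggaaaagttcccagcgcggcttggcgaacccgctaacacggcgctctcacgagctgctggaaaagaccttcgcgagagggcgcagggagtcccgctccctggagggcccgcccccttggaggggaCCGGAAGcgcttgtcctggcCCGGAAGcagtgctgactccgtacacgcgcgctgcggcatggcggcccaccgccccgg
WDR12, chr2:202911624-202911923, minus strand: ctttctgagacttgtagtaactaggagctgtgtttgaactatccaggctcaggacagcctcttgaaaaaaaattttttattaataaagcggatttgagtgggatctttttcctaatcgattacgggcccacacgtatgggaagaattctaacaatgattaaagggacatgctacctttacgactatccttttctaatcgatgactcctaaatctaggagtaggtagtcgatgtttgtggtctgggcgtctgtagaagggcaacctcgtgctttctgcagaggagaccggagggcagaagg
Counted with the transcript start as +1 and no position 0, the E-box began at -64 in LYAR, +15 in MRTO4, +29 in BYSL and -5 in RRP9. The ETS core of RRP9 began at -231, and those of TSR1 at -28 and -8. IMP4 held 2 E-boxes, at -203 and +16. LYAR and IMP4 each have a further window in the table, without either motif.

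RefSeq windows were at hand for 26 of the 30 measured members. An E-box was found in 13 of these genes, against 10.9% of 15384 genes measured on the array and 8.77% of all 27305 genes in the table. The ETS core was found in 9 member genes, or 34.6%, against 16.6% of the genes on the array. The 13 members with an E-box and the 13 without one had siBRAF medians of -0.99 and -0.88 in normal medium and -1.27 and -1.22 in glutamine-free medium. At least 2-fold lower in both media were 5 of the 13 with an E-box and 4 of the 13 without one. A match of letters is not a binding site, and no binding was measured.

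**Figure D1:**
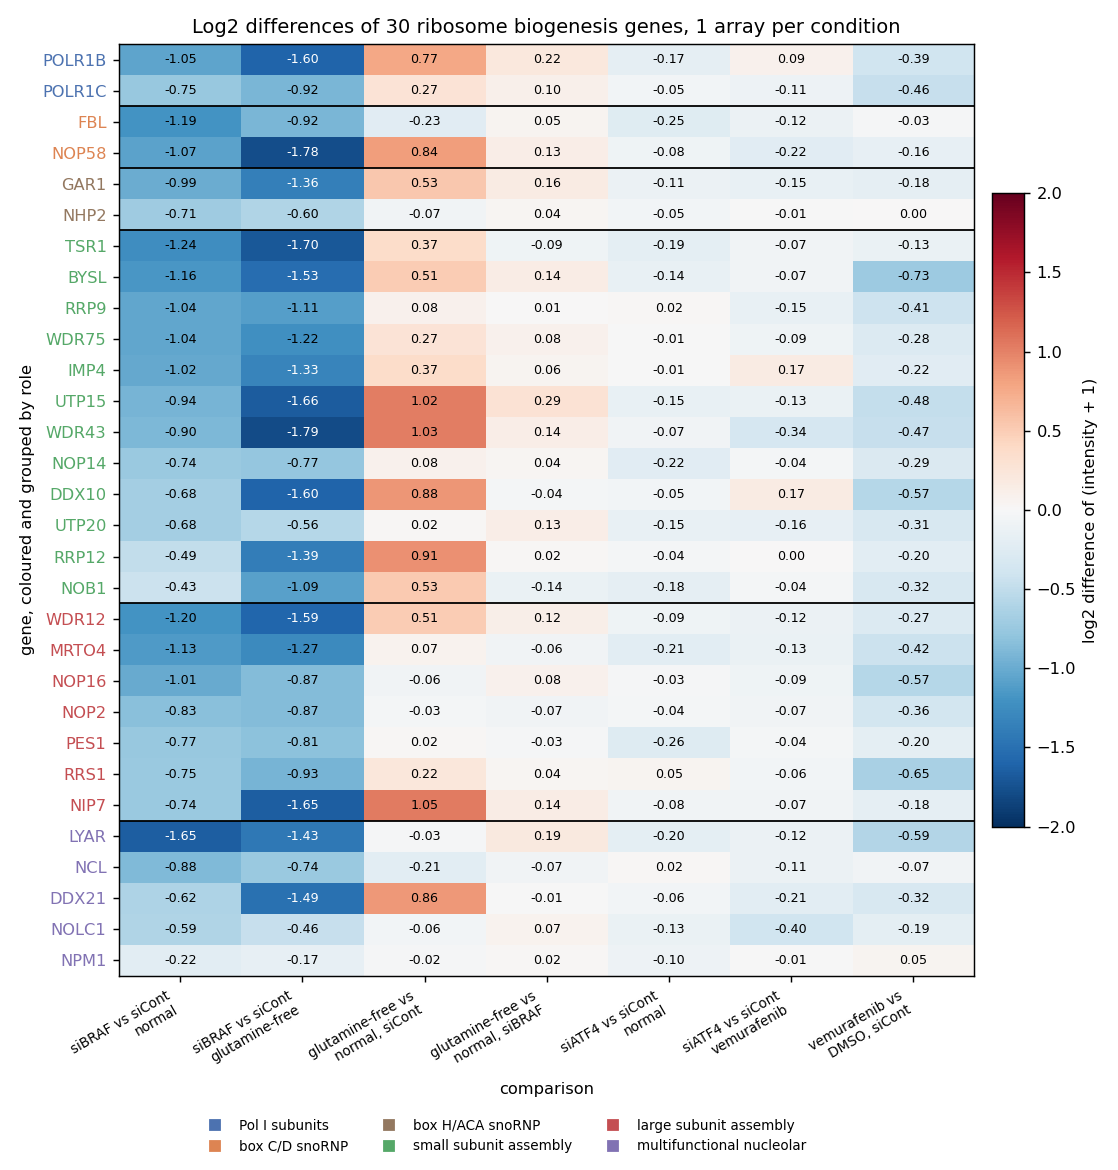
Log2 differences of the 30 measured members (rows, grouped and coloured by role) in 7 comparisons of single arrays (columns), with blue for lower and red for higher and the value in each cell. Both siBRAF columns are below 0 in all 30 rows, the glutamine-free column of siCont cells is above 0 in 22, and the siATF4 columns stay within -0.40 and 0.17.

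All 30 measured ribosome biogenesis factors had lower RNA on the arrays labelled siBRAF, by the probe set used for each. In normal medium all 30 members were lower with siBRAF than with siCont, with differences of -1.65 to -0.22 and a median of -0.89, where the median of all 13357 genes tested was -0.0058. Of the 30, 12 were at least 2-fold lower, against 7.6% of all genes, and 27 were at least 1.5-fold lower, against 16%. Without glutamine all 30 were again lower, and their median was -1.24 against 0.019 over all genes. There, 18 members were at least 2-fold lower, against 10.8% of all genes, and 27 at least 1.5-fold lower, against 20%. A difference below 0 was found in 50.5% of all genes in normal and 48.7% in glutamine-free medium.

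The siBRAF comparisons in the 2 media have no array in common. In both, 10 members were at least 2-fold lower, against 4.3% of 13139 genes tested in both. These were POLR1B, NOP58, RRP9, WDR75, IMP4, BYSL, TSR1, WDR12, MRTO4 and LYAR. At 1.5-fold, 25 members were lower in both, against 9.9% of genes. The exceptions at 1.5-fold were UTP20, RRP12, NOB1, NPM1 and NOLC1. On both siBRAF arrays all 30 members read lower than on each of the 3 other medium arrays, as did 27.8% of genes. RNA quality was read from the actin controls as the log2 gap of the 3-prime over the 5-prime probe set. It was 0.18 with siBRAF and 0.16 with siCont in normal medium, and 0.16 with siBRAF and 0.28 with siCont in glutamine-free medium. Its part in the result was not tested. The summed intensity of 8 markers of other cell types was 307 with siBRAF and 324 with siCont in normal medium, and 329 with siBRAF and 211 with siCont in glutamine-free medium. Of the 8, PECAM1, KRT14, KRT5, DCN and HBB lay above the array median on all 8 arrays, PTPRC and EPCAM below it on all, and COL3A1 above it on 2. COL3A1, a fibroblast collagen, read 27.3 with siBRAF and 4.68 with siCont in normal medium, and 24.2 with siBRAF and 3.19 with siCont in glutamine-free medium. The 7 melanocyte markers summed to 2951 with siBRAF and 1371 with siCont in normal medium, and to 2622 with siBRAF and 1688 with siCont in glutamine-free medium. These sums were carried by a few genes. S100B read 1302 with siBRAF and 288 with siCont in normal medium, and 1050.0 with siBRAF and 109.5 with siCont in glutamine-free medium. MITF read 567 with siBRAF and 254 with siCont in normal medium, and 567 with siBRAF and 417 with siCont in glutamine-free medium. SOX10 read 1027 with siBRAF and 776 with siCont in normal medium, and 957 with siBRAF and 1117 with siCont in glutamine-free medium. TYR read 17.7 with both siRNAs in normal medium, and 17.7 with siBRAF and 15.4 with siCont in glutamine-free medium. TYRP1 read 12.7 with siBRAF and 4.8 with siCont in normal medium, and 8.28 and 5.15 in glutamine-free medium. In the same order PMEL read 15.8, 20.0, 13.3 and 15.3, and MLANA 9.15, 10.7, 8.7 and 8.79. MLANA and TYRP1 lay below the array median, and TYR and PMEL near it. The part of neither list in the result was tested.

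**Figure D2:**
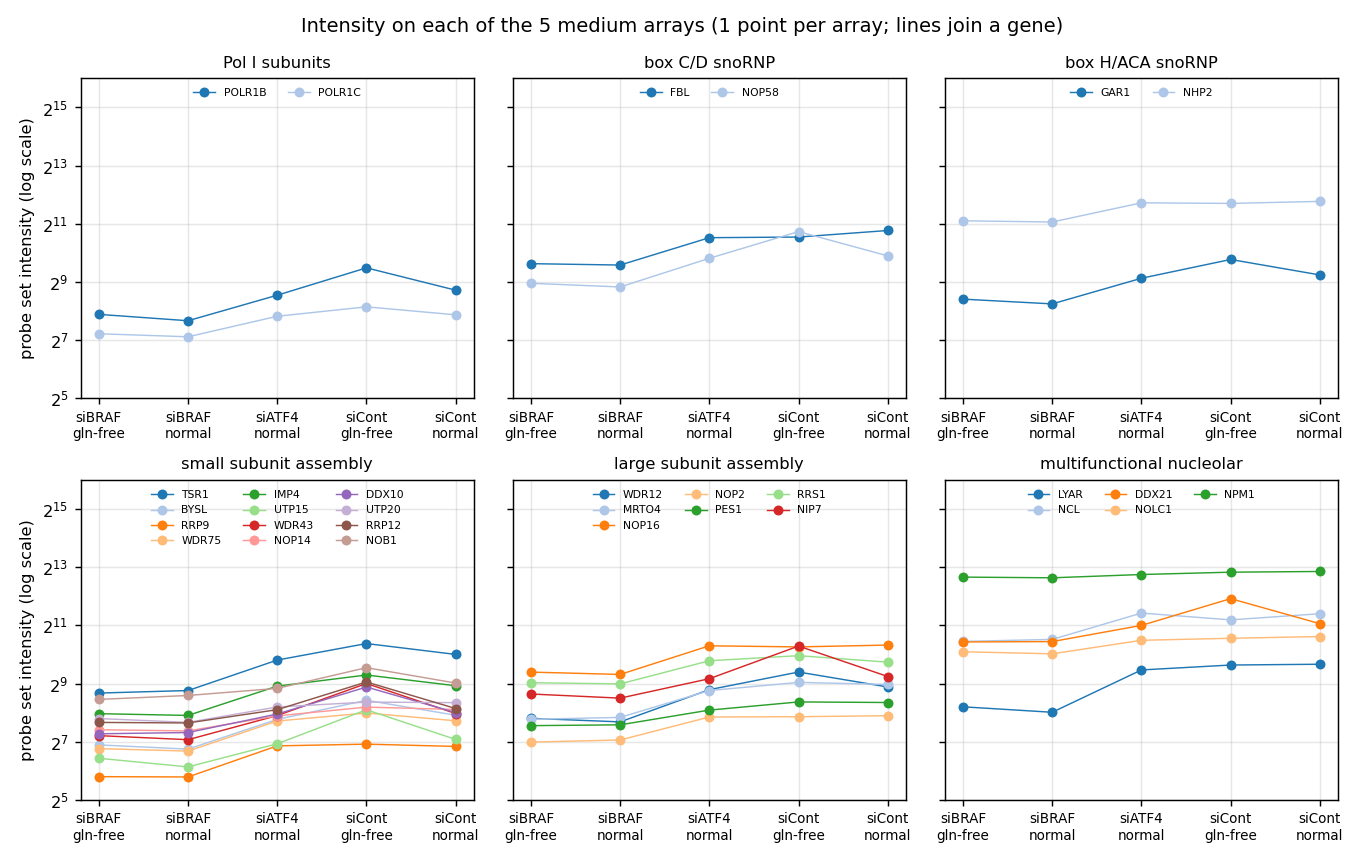
Probe set intensity (log axis) of each measured member on the 5 medium arrays, 1 panel per role and 1 point per array, with lines only to join the points of a gene. Both siBRAF arrays, at the left of each panel, carry the lowest values of all 30 members, and the glutamine-free siCont array the highest values of genes such as NIP7, WDR43 and DDX21.

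RNA polymerase I was represented by POLR1B, its second-largest subunit, and POLR1C, a subunit it shares with RNA polymerase III. POLR1B read 202 with siBRAF and 419 with siCont in normal medium (-1.05), and 236 with siBRAF and 714 with siCont in glutamine-free medium (-1.60). POLR1C read 138 with siBRAF and 233 with siCont in normal medium (-0.75), and 148 with siBRAF and 282 with siCont in glutamine-free medium (-0.92). Both genes were lower on each siBRAF array than on any siCont or siATF4 array of the set. The 3 other probe sets of POLR1B gave smaller differences, of -0.54, -0.32 and -0.53 in normal and -1.07, -0.46 and -1.42 in glutamine-free medium. The other one of POLR1C gave -1.10 in normal and -1.23 in glutamine-free medium. Of 13 other genes of the polymerase and its initiation factors, 1 was at least 2-fold lower in normal medium, near the 7.6% of all genes. Without glutamine 3 were so, against 10.8% of all genes. The list medians were -0.36 in normal and -0.43 in glutamine-free medium. TAF1A, a subunit of the promoter selectivity factor, read 67.2 with siBRAF and 248 with siCont in normal medium (-1.86), and 69.5 with siBRAF and 579 with siCont in glutamine-free medium (-3.04), the lowest of that list. UBTF, the architectural factor of active ribosomal DNA, stood at -0.13 in normal and 0.74 in glutamine-free medium.

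The box C/D and box H/ACA small nucleolar ribonucleoproteins methylate ribosomal RNA and convert its uridines to pseudouridine. FBL, fibrillarin, the methyltransferase of the box C/D particle, read 764 with siBRAF and 1742 with siCont in normal medium (-1.19), and 789.6 with siBRAF and 1490.0 with siCont in glutamine-free medium (-0.92). NOP58, a core scaffold of the same particle, read 453 with siBRAF and 950.2 with siCont in normal medium (-1.07), and 494 with siBRAF and 1697 with siCont in glutamine-free medium (-1.78). The siBRAF levels of NOP58 were close in the 2 media, whereas its siCont level was higher without glutamine. GAR1, a core protein of the box H/ACA particle, read 302 with siBRAF and 603 with siCont in normal medium (-0.99), and 339 with siBRAF and 872 with siCont in glutamine-free medium (-1.36). NHP2, its partner, read 2133 with siBRAF and 3488 with siCont in normal medium (-0.71), and 2195 with siBRAF and 3324 with siCont in glutamine-free medium (-0.60). GAR1 in normal medium was just short of 2-fold. NHP2 had the smallest difference of these 4 genes in both media, at 1.63-fold and 1.51-fold lower.

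Of 12 members that act in small subunit assembly, 5 were at least 2-fold lower with siBRAF in normal medium and 10 without glutamine. Of all genes, 7.6% and 10.8% were so. The medians of these members were -0.92 and -1.36. TSR1, a late pre-ribosomal factor, read 433 with siBRAF and 1025 with siCont in normal medium (-1.24), and 408 with siBRAF and 1328 with siCont in glutamine-free medium (-1.70). BYSL, bystin, a factor of late small subunit maturation, read 107 with siBRAF and 240.2 with siCont in normal medium (-1.16), and 118 with siBRAF and 343 with siCont in glutamine-free medium (-1.53). In both genes the siBRAF levels were close between the media, and the siCont level was higher without glutamine. RRP9, a WD-repeat protein of the U3 particle, read 55.1 with siBRAF and 114 with siCont in normal medium (-1.04), and 55.5 with siBRAF and 121 with siCont in glutamine-free medium (-1.11). IMP4, another component of the U3 complex, read 239 with siBRAF and 485 with siCont in normal medium (-1.02), and 249 with siBRAF and 627 with siCont in glutamine-free medium (-1.33).

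WDR43, WDR75 and UTP15 belong to a subcomplex that binds the nascent precursor and is tied to its transcription. WDR43 read 134 with siBRAF and 250.3 with siCont in normal medium (-0.90), and 148 with siBRAF and 512 with siCont in glutamine-free medium (-1.79). WDR75 read 102 with siBRAF and 210.4 with siCont in normal medium (-1.04), and 108 with siBRAF and 254 with siCont in glutamine-free medium (-1.22). UTP15 read 70.0 with siBRAF and 135 with siCont in normal medium (-0.94), and 86.0 with siBRAF and 274 with siCont in glutamine-free medium (-1.66). Without glutamine the siBRAF levels of WDR43, WDR75 and UTP15 were higher by 0.14, 0.084 and 0.29 on the log2 scale. Their siCont levels were higher by 1.03, 0.27 and 1.02. The smallest differences in normal medium belonged to NOB1, the nuclease that trims the end of the small subunit RNA, at -0.43, and RRP12, a factor of subunit export, at -0.49. NOB1 read 385 with siBRAF and 518 with siCont in normal medium (-0.43), and 350.3 with siBRAF and 747 with siCont in glutamine-free medium (-1.09). RRP12 read 199.8 with siBRAF and 282 with siCont in normal medium (-0.49), and 202 with siBRAF and 531 with siCont in glutamine-free medium (-1.39). The remaining 3, the scaffold proteins NOP14 and UTP20 and the helicase DDX10, stood at -0.74, -0.68 and -0.68 in normal medium and at -0.77, -0.56 and -1.60 without glutamine.

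Among 7 measured members of large subunit assembly, 3 were at least 2-fold lower in each medium. Of all genes, 7.6% were so in normal and 10.8% in glutamine-free medium. All 7 members were at least 1.5-fold lower in both media, against 9.9% of genes. WDR12, a protein that forms a complex with PES1 and BOP1, read 205 with siBRAF and 471 with siCont in normal medium (-1.20), and 223 with siBRAF and 673 with siCont in glutamine-free medium (-1.59). PES1 itself stood at -0.77 and -0.81. MRTO4, a factor that holds the place of the ribosomal stalk, read 228 with siBRAF and 501 with siCont in normal medium (-1.13), and 218 with siBRAF and 526 with siCont in glutamine-free medium (-1.27). MRTO4 thus differed by nearly the same amount in both media. NIP7, a factor of precursor processing, read 361 with siBRAF and 605 with siCont in normal medium (-0.74), and 399 with siBRAF and 1251 with siCont in glutamine-free medium (-1.65). NOP16 (-1.01 and -0.87), the methyltransferase NOP2 (-0.83 and -0.87) and RRS1 (-0.75 and -0.93), which helps to bring in the 5S particle, completed the group.

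The multifunctional nucleolar proteins ranged in normal medium from -1.65 to -0.22. LYAR, a zinc finger protein of the nucleolus, read 258 with siBRAF and 811 with siCont in normal medium (-1.65), and 294 with siBRAF and 796 with siCont in glutamine-free medium (-1.43). LYAR had the largest difference of all 30 members in normal medium, at 3.14-fold lower, and a further LYAR probe set gave -1.54 and -1.49. NCL, nucleolin, a chaperone of nascent ribosomal RNA, read 1467 with siBRAF and 2705 with siCont in normal medium (-0.88), and 1397 with siBRAF and 2337 with siCont in glutamine-free medium (-0.74). DDX21, a helicase of transcription and processing, read 1392 with siBRAF and 2135 with siCont in normal medium (-0.62), and 1380.0 with siBRAF and 3876 with siCont in glutamine-free medium (-1.49). The smallest difference in both media was that of NPM1. NPM1, nucleophosmin, a histone and ribosome chaperone, read 6376 with siBRAF and 7414 with siCont in normal medium (-0.22), and 6484 with siBRAF and 7290.2 with siCont in glutamine-free medium (-0.17). Other probe sets of NPM1 gave -0.46 and -0.73 in normal medium. NOLC1, a chaperone of small nucleolar particles, stood at -0.59 there, and its other probe sets gave -0.98 and -1.27.

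The 30 members had 58 probe sets in all, of which 51 lay above the array median on all 8 arrays. Of these, 49 were lower with siBRAF in normal medium and 49 without glutamine. The medians were -0.77 and -1.12. The size of a member's difference depended on the probe set. Of 21 second probe sets, from 13 genes, 12 gave a less negative and 9 a more negative difference than the one used in normal medium, and 8 were over 1.5-fold away from it, 7 of them less negative. Without glutamine 13 were less and 8 more negative, and 10 were over 1.5-fold away, 7 of them less negative. NOP16, at -1.01 in normal medium, had others at -1.17, 0.13 and 0.29. TSR1, at -1.24, had others at -1.43, -0.45 and -0.42. The second probe set of UTP15 gave -0.18, against -0.94, and the one of RRP12 that lay above the median gave -0.14, against -0.49. In glutamine-free medium 1 probe set of NOP16 and 1 of WDR12 were above 0. The probe sets of a gene share its RNA and are no replicates of a condition.

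Genes of the same pathway outside the 34 were mostly lower with siBRAF as well, with medians closer to 0, while the ribosomal proteins stayed near 0. The members and lists were chosen with earlier results of these data known, and the part of this choice in the contrast was not tested. At a limit of 1.5-fold, 16% of all genes were lower in normal and 20% in glutamine-free medium. Of 35 other small subunit assembly genes, 18 were at least 1.5-fold lower in normal medium and 25 without glutamine, with medians of -0.61 and -0.91. WDR3, a scaffold of the small subunit processome, stood at -0.89 and -1.71, and the methyltransferase EMG1 at -1.13 and -1.27. At least 2-fold lower were 2 of these 35 in normal and 14 in glutamine-free medium, against 7.6% and 10.8% of all genes. Of 35 measured other large subunit assembly genes, 20 and 31 were at least 1.5-fold lower, with medians of -0.66 and -1.03. At 2-fold, 3 and 18 of them were lower. NOC3L (-1.25 and -2.35) and PAK1IP1 (-0.93 and -2.11) were the lowest of that list by the mean of both media, and NSA2 (0.047 and 0.14) and FTSJ3 (-0.35 and 0.10) the highest.

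The cytosolic ribosomal protein genes had medians of -0.013 over 52 genes in normal and -0.047 over 51 in glutamine-free medium, and none was 1.5-fold apart in either. Of 79 listed, 53 were measured. RPL27A was the lowest by the mean of both media, at -0.35 and -0.37, and RPS27 was at 0.22 and 0.045. The RPL27A probe set was dim for this list, at 134 with siBRAF and 172 with siCont in normal medium. The list median there was 7822 with siCont. Most probe sets of the list lay at the top of the arrays, with a median percentile of 99.8 with siBRAF and 99.8 with siCont in normal medium. That of the members was 88.2 with siBRAF and 94.0 with siCont. Whether such bright signals still follow the amount of RNA was not tested.

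**Figure D3:**
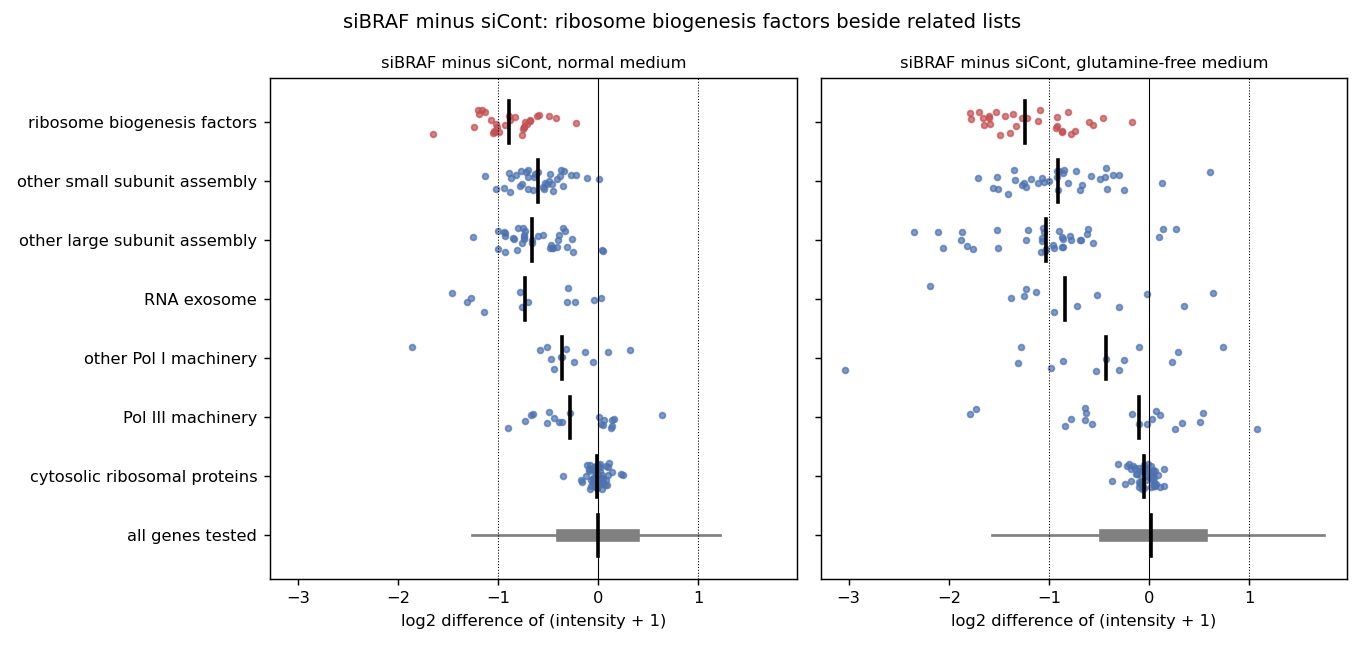
Log2 difference of siBRAF minus siCont per gene in normal (left) and glutamine-free medium (right) for the members (red), 6 related lists (blue) and all genes tested (grey, 25th to 75th percentile as the thick and 5th to 95th as the thin line), with black bars for medians and dotted lines at 2-fold. The members lie wholly below 0, and the ribosomal proteins gather at 0.

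Glutamine withdrawal went with higher RNA of some ribosome biogenesis factors in siCont cells and with little change in siBRAF cells. In siCont cells 22 of 30 members were higher without glutamine, where 53.8% of all genes were lower, with a median of 0.27 against -0.045 over 13370 genes. At 1.5-fold, 8 members were higher, against 13.3% of all genes, and none was lower, against 16.7%. At 2-fold, 3 were higher, against 5.75%. These 3 differences lay close to the limit, and under quantile normalization none reached it. With siBRAF, glutamine withdrawal gave a median of 0.054, a range of -0.14 to 0.29, and no member 1.5-fold apart, against 0.57% of genes higher and 0.722% lower. The small change with siBRAF was thus not particular to the members. Over all genes the standard deviation of the difference was 0.19 with siBRAF and 0.72 with siCont. ATF4 read 4360 without glutamine and 1814 in normal medium with siCont, and 1498 without glutamine and 1519 in normal medium with siBRAF.

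The members that were higher came from several steps of assembly. NIP7 read 1251 without glutamine and 605 in normal medium in siCont cells (1.05). WDR43 read 512 without glutamine and 250.3 in normal medium (1.03), and UTP15 read 274 without glutamine and 135 in normal medium (1.02). These siCont arrays are the same ones that the siBRAF arrays were set against. RRP12 (0.91), DDX10 (0.88), DDX21 (0.86), NOP58 (0.84) and POLR1B (0.77) followed. In siBRAF cells these 8 genes stood between -0.043 for DDX10 and 0.29 for UTP15. The lowest members in siCont cells were FBL (-0.23) and NCL (-0.21), followed by NHP2 (-0.069) and NOP16 (-0.064). By role and by the probe set used, all 12 small subunit members were higher, with a median of 0.44. Of 5 multifunctional nucleolar proteins 4 were lower, with a median of -0.028. The sign of several depended on the probe set. Other probe sets gave 0.36 and 0.36 for NOLC1, against -0.06 by the one used, and 0.083 for LYAR, against -0.028. Those of NPM1 gave -0.02 and 0.0082, against -0.024, and those of NOP16 gave 0.31, 0.085 and -0.0022. The siCont array without glutamine was also the one with the largest actin probe difference of its set, 0.28. By the GAPDH controls the same gap was 0.13 on that array and 0.10 to 0.14 over the 5 medium arrays. The part of RNA quality was not tested.

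Other assembly genes were likewise mostly higher in siCont cells. Of 35 other large subunit genes 30 were higher, 13 by at least 1.5-fold, with PAK1IP1 at 1.43 and NOC3L at 1.37. Of 35 other small subunit genes 27 were higher, 8 by at least 1.5-fold. Of all 13370 genes, 6171 were higher, and 13.3% were higher by at least 1.5-fold. The ribosomal proteins had a median of 0.029, and none was 1.5-fold apart.

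The glutamine response of siBRAF cells minus that of siCont cells had a median of -0.18 over the members, against 0.054 over all 13722 genes, and was below 0 in 22 members and 45.7% of genes. It passed 1.5-fold downward in 8 members, against 13.3% of all genes. The most negative were DDX10 (-0.92), NIP7 (-0.90), RRP12 (-0.89) and WDR43 (-0.89), and the most positive FBL (0.27) and LYAR (0.22). It rests on 4 arrays and was not tested.

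**Figure D4:**
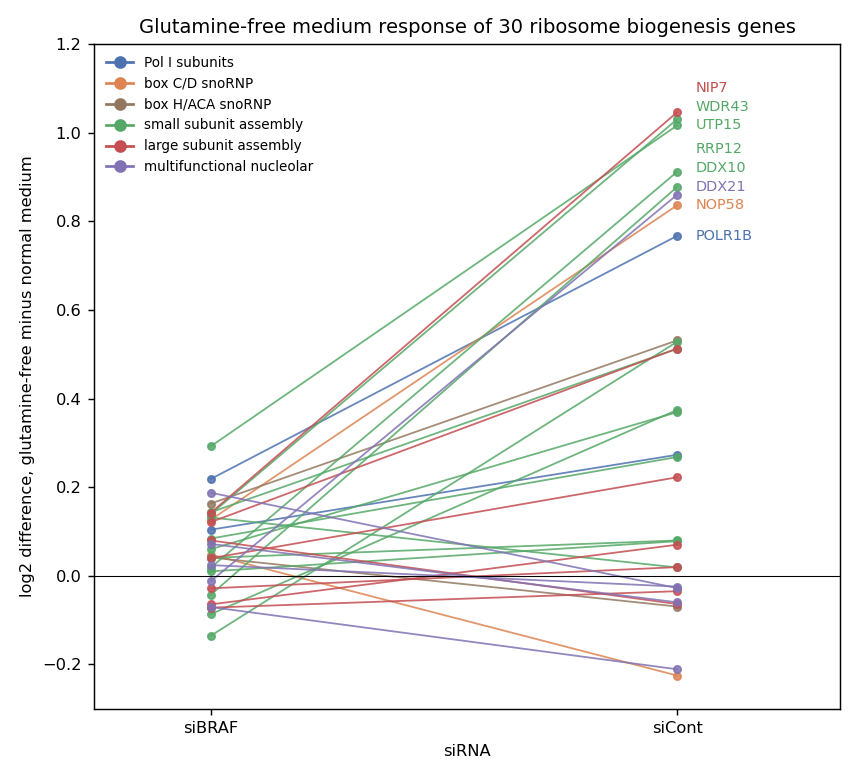
Log2 difference of glutamine-free minus normal medium for each of the 30 members in siBRAF cells (left) and siCont cells (right), with a line per gene coloured by role and names for the 8 genes at least 1.5-fold higher in siCont cells. The points spread from -0.23 to 1.05 in siCont cells and lie between -0.14 and 0.29 in siBRAF cells.

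Vemurafenib for 4 h went with slightly lower RNA of most members in siCont cells. No member was 2-fold lower, against 1.92% of all genes, while 28 of 30 were lower than in DMSO, against 45.1% of 13166 genes, and the median was -0.30 against 0.025. At 1.5-fold 3 were lower, against 4.61% of all genes. BYSL read 346 in vemurafenib and 573 in DMSO (-0.73). RRS1 read 1439.8 in vemurafenib and 2266 in DMSO (-0.65). LYAR read 1264 in vemurafenib and 1905 in DMSO (-0.59). These 3 were the largest differences, and NOP16 (-0.57) and DDX10 (-0.57) were just short of 1.5-fold.

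The highest members were NPM1 (0.054), NHP2 (0.0045), FBL (-0.03) and NCL (-0.075). Both polymerase subunits were lower, POLR1B at -0.39 and POLR1C at -0.46, as were all 12 small subunit and all 7 large subunit members, with medians of -0.32 and -0.36. Other small and large subunit genes had medians of -0.26 and -0.25, and the ribosomal proteins one of 0.024. The actin probe difference was -0.069 in vemurafenib and -0.18 in DMSO, and its part was not tested. The drug arrays were read after 4 h and the siBRAF arrays after 18 h in their medium on another scale, so the sizes are given side by side and were not compared.

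With ATF4 knockdown the members differed little by the probe set used for each. In normal medium the median was -0.088 with siATF4, against 0.029 over all genes, and the range ran from -0.26 for PES1 to 0.047 for RRS1. In vemurafenib the median was -0.088 against 0.032, from -0.40 for NOLC1 to 0.17 for IMP4. By these probe sets no member was 1.5-fold apart in either setting. Of all genes, 1.86% were lower and 2.62% higher in normal medium, and 2.56% lower and 1.77% higher in vemurafenib. The count below 0 was 27 in normal medium, against 44.6% of all genes, and 26 in vemurafenib, against 43.5%, by small amounts. NOLC1 read 2037 with siATF4 and 2679.5 with siCont in vemurafenib, and WDR43 read 408 with siATF4 and 516 with siCont (-0.34). These were the largest differences below 0 of that pair by the probe sets used. Other probe sets of NOLC1 gave -0.58 and -0.56 there, and those of NPM1 gave -0.58 and -0.11. All but the last were just short of 1.5-fold. In normal medium the other NOLC1 probe sets gave -0.33 and -0.44, against -0.13 by the one used. The siCont array in vemurafenib also serves the comparison with DMSO. In normal medium PES1 read 272 with siATF4 and 325 with siCont, and RRS1 read 881 with siATF4 and 852 with siCont.

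**Figure D5:**
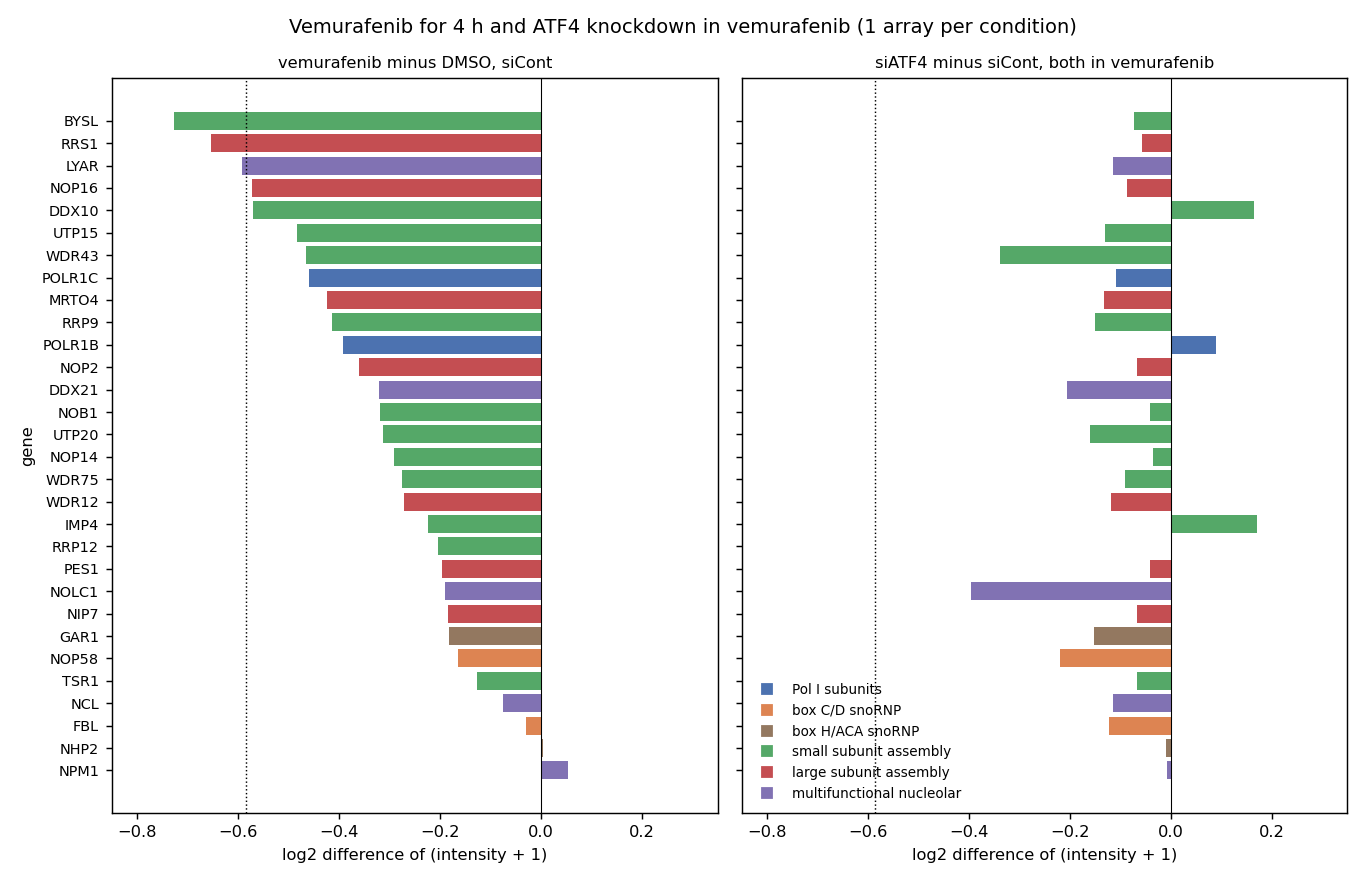
Log2 difference of each member for vemurafenib minus DMSO in siCont cells (left) and for siATF4 minus siCont in vemurafenib (right), with genes ordered by the left panel, bars coloured by role and a dotted line at 1.5-fold lower. BYSL, RRS1 and LYAR pass the line at the left, and no bar passes it at the right.

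MYC, the transcription factor known to bind the E-box, read 45.5 with siBRAF and 133 with siCont in normal medium, and 43.6 with siBRAF and 1321 with siCont in glutamine-free medium. It was lower with siBRAF, with a log2 difference of -1.52 in normal and -4.89 in glutamine-free medium, in the comparisons where all 30 members were lower. Without glutamine it was higher in siCont cells (3.31) and not in siBRAF cells (-0.059). It read 52.6 in vemurafenib and 471 in DMSO (-3.14). With siATF4 it stood at -0.68 in normal medium and -0.96 in vemurafenib, where no member was 1.5-fold apart by the probe set used. Its part in the members' levels was not tested.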

How the data were processed

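RNA of A375 cells was measured on 8 arrays, 1 per condition. Each deposited value is an intensity that was not log-transformed, and the submitters' processing notes name RMA, a method of background correction, normalization and probe summary. No version is given in the sources used here. Of 54675 probe sets, 41091 pair with 1 gene symbol in the platform annotation. Symbols were updated through the Entrez gene ID where RefSeq held it.

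From these values log2(intensity + 1) was computed, with 1 probe set per gene. Array controls were left out. Genes were tested where at least 1 of the arrays compared reached the 50th percentile of its probe sets. Genes past 2-fold and 1.5-fold were counted. No model was fitted, and no condition has a replicate. The number of arrays limits the precision. The steps were tested on simulated data. Python 3.11.15 and pandas 2.3.3 were used. Members were named by role and by size of difference. From each other list the 2 lowest and 2 highest genes by mean siBRAF difference could be named, with ATF4, MYC and cell markers. The members and lists were chosen with earlier results of these data known. Alternatives were the added constant, the filter, the choice of probe sets and quantile normalization within an array set.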

Additional observations from a re-analysis of the deposited data

How the results depend on the processing

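No paired analysis was possible because the labels give no replicate numbers and each condition has 1 array. The medium is the only block, and the siBRAF differences are given within each medium. An additive fit of siRNA and medium over these 4 arrays was not run. All 30 members were lower with siBRAF in both media under each alternative that kept all 30, and so were the 22 left without probe sets shared between transcripts. With log2(intensity + 16), 7 in place of 12 members were at least 2-fold lower with siBRAF in normal medium, and 1 in place of 3 was at least 2-fold higher without glutamine in siCont cells. Quantile normalization brought this glutamine count to 0. The siBRAF median in glutamine-free medium was -1.08 in place of -1.24 where all probe sets of a gene were averaged. Of the alternative values of member counts and medians, 123 stayed within 1.5 times for a count or 0.1 for a median, and 4 did not. Many of the 123 were counts of 0 that stayed 0, such as those 2-fold apart with siATF4 or in vemurafenib. The 123 also hold 8 with probe sets averaged and 9 under quantile normalization, in place of 12, at least 2-fold lower with siBRAF in normal medium. Among the 123, 21 came from leaving out the filter, which could not change them, since all members lay above the array median. Another 21 came from a filter at the 75th percentile. It left 29 members in the glutamine comparison of siBRAF cells and all 30 elsewhere, so it could change little. No member that was at least 2-fold apart changed sign under these alternatives. Averaging probe sets moved 56 single-member values by over 0.1. Both the choice of probe set and the 1 array per condition limit the sizes given.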

Other observations

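Most genes of the RNA exosome were lower with siBRAF, while genes of RNA polymerase III differed in both directions. The RNA exosome, which trims and degrades precursors, had 11 of 12 measured genes below 0 in normal and 10 in glutamine-free medium. Of all genes, 50.5% and 48.7% were below 0. At 1.5-fold, 7 exosome genes were lower in each medium, against 16% and 20% of all genes. The exosome medians were -0.73 and -0.83. EXOSC8 (-1.47 and -2.19) and EXOSC5 (-1.14 and -1.38), both of the ring of the complex, had the lowest means of both media. EXOSC4 (-0.31 and 0.64) and EXOSC6 (0.028 and 0.35), of the same ring, had the highest. RNA polymerase III makes the 5S RNA and transfer RNAs. Of its 19 genes 4 were at least 1.5-fold lower in normal and 7 in glutamine-free medium, against 16% and 20% of all genes. The medians of the 19 were -0.29 and -0.10. The subunits POLR3C (-0.73 and -1.78) and POLR3D (-0.52 and -1.73) were the lowest, and POLR3GL (0.64 and 1.08) was the highest.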
